A study of Mus musculus with 45 samples.

Results

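The 84 genes described here are the matrix metalloproteinases (MMPs), the ADAM and ADAMTS proteases, the ADAMTS-like proteins and the tissue inhibitors of metalloproteinases (TIMPs). They were chosen by gene symbol (Mmp, Adam or Adamts followed by a number, ADAMTS-like genes included, and Timp1 to Timp4) from the 52636 genes of the count tables. The set holds 23 MMPs, 33 ADAMs, 19 ADAMTSs, 5 ADAMTS-like genes and 4 TIMPs. MMPs and ADAMTSs are zinc-dependent enzymes that cut the proteins of the extracellular matrix. ADAMs are mostly anchored in the membrane and release growth factors, cytokines and receptor ectodomains from the cell surface, and TIMPs bind the active site of the enzymes and block it. In the intestine, MMP7 is known as a Paneth cell enzyme that activates antimicrobial defensins, and ADAM10 cuts the Notch receptors that keep stem cells undifferentiated.

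RNA was sequenced from 15 libraries of sorted Lgr5-expressing mouse small intestinal cells and from 30 libraries of small intestinal organoids. Lgr5 is a receptor for Rspondin ligands, which raise Wnt signalling, and it marks intestinal stem cells. The eGFP+ve cells of the Lgr5-DTReGFP strain, in which the reporter disrupts Lgr5, came from E16.5 heterozygous (HE) embryos (2 pools, of 7 and 8 embryos) and Lgr5-null homozygous (KO) embryos of the same 2 litters (pools of 2 and 6 embryos), from 2 single HE embryos at E18.5, in both stages taking the whole small intestine, and from 2 HE adults aged 2 months, each giving a duodenum and an ileum library. The eGFP+ve/RFP+ve cells came from the ileum of adults aged 2 months, 2 labelled Lgr5-Cre/+ HE and 3 labelled Lgr5-Cre/flox conditional KO (cKO), 48 hours after 2 mg of tamoxifen. Every sorted cell thus carried at least 1 reporter allele of Lgr5, and no sorted sample was WT. The organoids were 3 WT cultures (WT10, WT5, WT30) and 2 KO cultures (KO7, KO2) of E17.5 Lgr5-DTReGFP embryos at passage 4, each grown with mouse Rspo1, Rspo2 or Rspo3 at 100 or 5 ng/ml. Each culture came from 1 embryo.

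Values are CPM, the reads of a gene scaled to a common library total, and fold changes are on the log2(CPM + 1) scale, which understates the change of low genes. Sorted-cell libraries held between 1275945 reads (E16.5 HE pool 1) and 9984665 reads, and organoid libraries held 18127766 to 33105514, so 1 read was worth up to 0.784 CPM. Intervals and detection limits drawn from depth cover counting error only. Epcam, the epithelial adhesion molecule, was between 844 and 1279 CPM in all 15 sorted libraries. Lgr5 was 104 and 125 CPM in the E16.5 HE pools and 64.8 and 51.7 CPM in the KO pools. In the tamoxifen libraries it was 52.8 and 87.6 CPM with the HE label and 89.2, 109 and 90.7 CPM with the cKO label. These values count the whole gene, whereas Cre deletes 1 exon of the flox allele, so they do not check the labels. The E16.5 KO pool of 2 embryos was male by Xist (1.55 CPM, against 639 to 1224 CPM in the other 3 pools). Both KO cultures were male and the WT cultures female by Ddx3y (58.6 and 56.2 CPM against 0 to 0.45 CPM with 100 ng/ml Rspo1), so genotype and sex of the organoids cannot be told apart.

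Of the 84 genes, 67 reached 1 CPM in at least 1 sorted library and 22 reached 10 CPM. In organoids, 32 reached 1 CPM, 13 reached 10 CPM and 9 were at 0 in every library. Compared per kb of exon, Adam10 was at the top in every embryonic group (25.4 CPM per kb in E16.5 HEs, 29.9 in E16.5 KOs and 35.4 in E18.5 HEs). Adam17, which sheds TNF and ligands of the EGF receptor, came next in E16.5 KOs (15.3 CPM per kb) and E18.5 HEs (10.7). In E16.5 HEs the second place belonged to Adamts1, which cuts versican and aggrecan (17.3 CPM per kb). In all 4 adult groups Mmp7 led, with mean levels from 189 to 599 CPM per kb, ahead of Adam10 (26.5 to 43.6). In the organoids Adam10 (28.7 to 35.1 CPM per kb over the 12 groups) and Mmp11, the stromelysin-3 that is activated inside the cell (22.7 to 37.9), held the leading places, and with 5 ng/ml Rspo3 the ADAMTS-like gene Adamtsl5 stood level with them (30.5 in WTs and 30.4 in KOs). The 4 inhibitors were unequal. Timp3, which stays bound to the matrix, ranged from 3.9 to 123 CPM in sorted cells and Timp2 from 0.35 to 19.6 CPM, whereas Timp1 never passed 1.6 CPM and Timp4 never passed 2.85 CPM. In organoids Timp1 stayed at or below 0.3 CPM and Timp4 at or below 0.85 CPM.

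**Figure D1:**
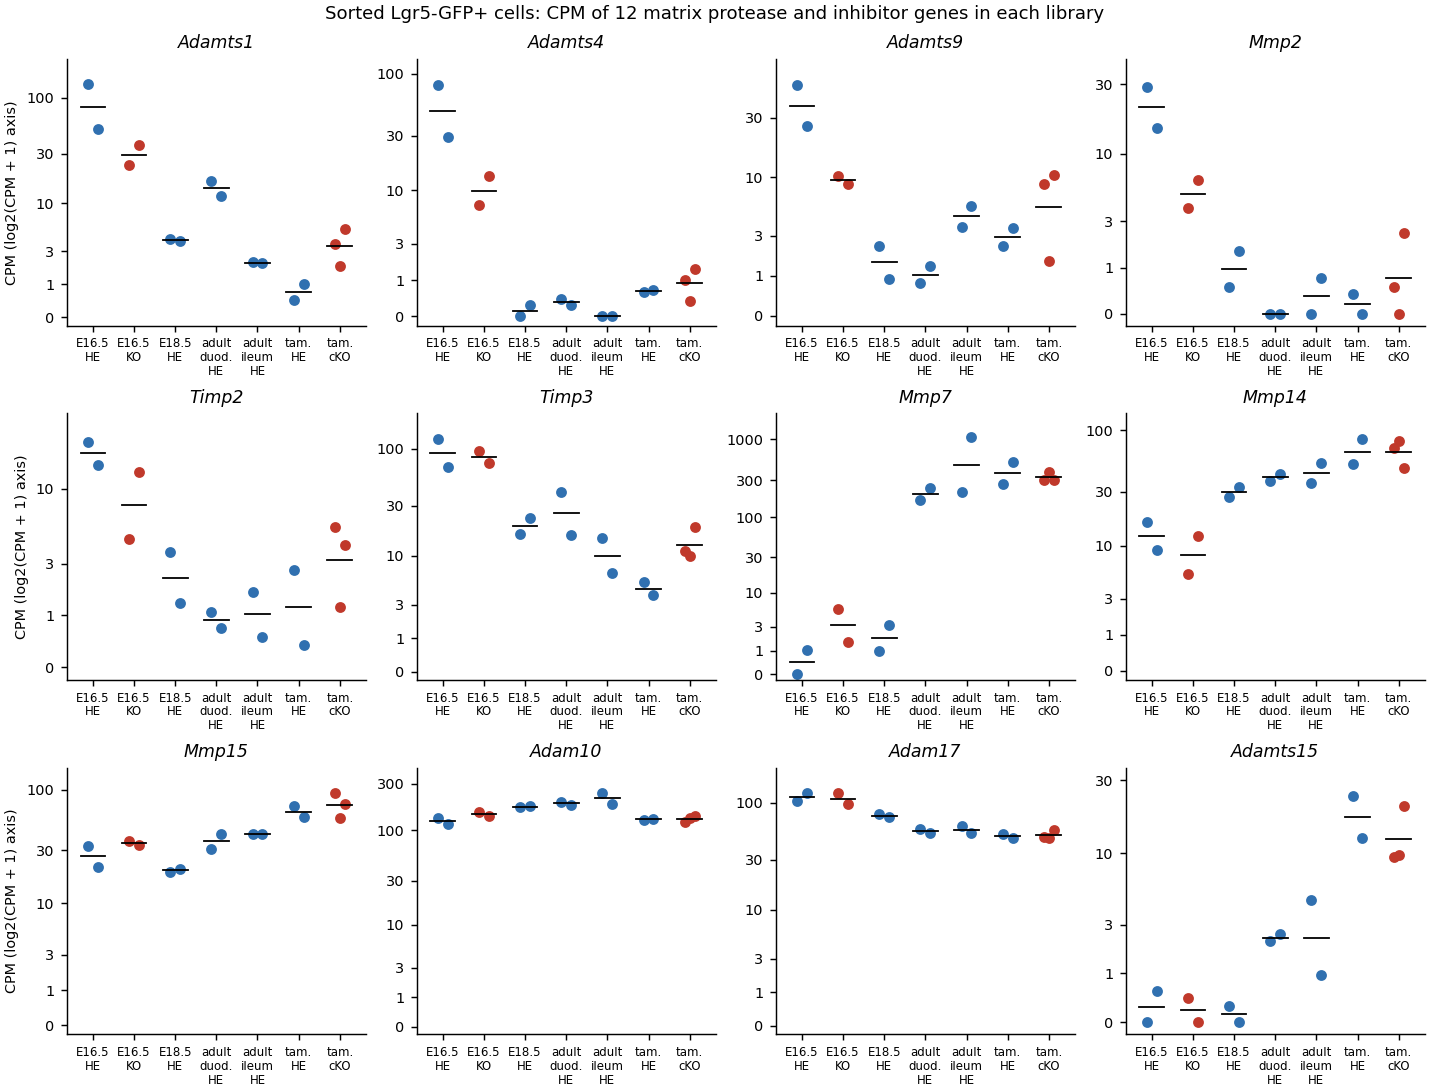
CPM of 12 genes in each of the 15 sorted-cell libraries, on a log2(CPM + 1) axis, by group (duod., duodenum; tam., ileum after tamoxifen). Points are libraries, blue for HE and red for KO or cKO labels, and bars are group means on the log scale. Adamts1, Adamts4, Adamts9 and Mmp2 are highest in the 2 E16.5 HE pools, Mmp7 is high in the 9 adult libraries, and Adam10 stays between 116 and 244 CPM.

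The comparison of KO and HE pools at E16.5 asks what the loss of Lgr5 changes in the earliest Lgr5-expressing cells. It found lower levels of 2 ADAMTS genes that cut the large proteoglycans versican and aggrecan. Adamts4 was 80.8 and 29.3 CPM in the HE pools and 7.3 and 13.5 CPM in the KO pools. Adamts9 was 53.3 and 25.8 CPM in HEs and 10.4 and 8.75 CPM in KOs. For both genes each KO pool was below each HE pool. Adamts4 was 4.54-fold lower in KOs (log2 fold change -2.18, SE 0.43, limma adjusted p = 0.0909), and Adamts9 was 3.62-fold lower (-1.86, SE 0.34, limma adjusted p = 0.0795). These were the 2 genes called of 41 tested, at a false discovery rate (FDR) of 0.1 and a fold change above 1.5, whereas 0.527% of all 17276 tested genes were called, 0.0868% higher and 0.44% lower. The median log2 fold change was -0.45 over the 41 genes and 0.08 over all genes tested.

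Mmp2, the gelatinase A that degrades basement membrane collagen, was 29 and 15.2 CPM in HEs and 3.85 and 6.4 CPM in KOs (-1.88, SE 0.40, limma adjusted p = 0.102). Adamts1 was 132.5 and 51 CPM in HEs and 23.8 and 36.2 CPM in KOs (-1.46, SE 0.37, limma adjusted p = 0.147). The KO pools lay below the HE pools for these genes as well, without passing the limits. Adamts2, which removes the amino-terminal propeptide of procollagen, was 14.2 and 6.1 CPM against 0.8 and 4.8 CPM (-1.68, SE 0.61, limma adjusted p = 0.274). Among inhibitors, Timp2 was 19.6 and 14.2 CPM in HEs and 4.6 and 12.8 CPM in KOs (limma adjusted p = 0.347). Timp3 was 123 and 68.7 CPM in HEs and 95 and 74.7 CPM in KOs, so the groups overlapped (limma adjusted p = 0.857). Adam10 and Adam17 differed by 0.24 and -0.04 on the log2 scale (SE 0.15 and 0.17).

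The differences were larger in the litter whose KO pool held 2 embryos. Within that litter the KO minus HE difference in log2(CPM + 1) was -3.30 for Adamts4, -2.26 for Adamts9, -2.63 for Mmp2 and -2.43 for Adamts1. In the other litter it was -1.06, -1.46, -1.13 and -0.48. All 4 genes were lower in the KO pool of each litter. Adam19, a sheddase of neuregulin, went in opposite directions, -2.90 and 0.52. With the litter as a term in the fit, limma called 5 genes, all lower in KOs (Adamts1, Adamts2, Adamts4, Adamts9 and Mmp2), whereas 4.8% of all genes were called. On recovered whole reads, edgeR called Adamts1, Adamts4, Adamts9 and Mmp2 (2.84% of all genes). With a pseudocount of 0.1, without the filter on low values or at FDR 0.05, limma called none of the 41. With 1 pool left out in turn, the log2 fold change lay between -2.90 and -1.47 for Adamts4 and between -2.37 and -1.35 for Adamts9.

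Other genes moved in the same pools. The summed level of 16 mesenchymal markers was 684 and 542 CPM in the HE pools and 108 and 306 CPM in the KO pools, with none of 14 tested markers called and a median log2 fold change of -1.51. The 5 endothelial markers summed to 55 and 25.4 CPM against 5.45 and 23.6 CPM, with 0 of 5 called. The 11 immune markers summed to 130 and 77.5 CPM against 28.2 and 37.9 CPM, counting both gene identifiers of Itgam. Of 9 tested identifiers 2 were called lower. Of 21 other genes of matrix proteolysis, Ctss, the cathepsin S of the lysosome, was the only call (47.1 and 23.8 CPM in HEs, 4.25 and 8.75 CPM in KOs, -2.27, SE 0.40, limma adjusted p = 0.0701). Vcan, which encodes the substrate versican, was 44.7 and 30.8 CPM in HEs and 8.85 and 18.7 CPM in KOs (limma adjusted p = 0.125). The part of these cells in the lower ADAMTS levels was not tested. In such bulk libraries fewer cells of a type and less RNA per cell cannot be told apart.

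**Figure D2:**
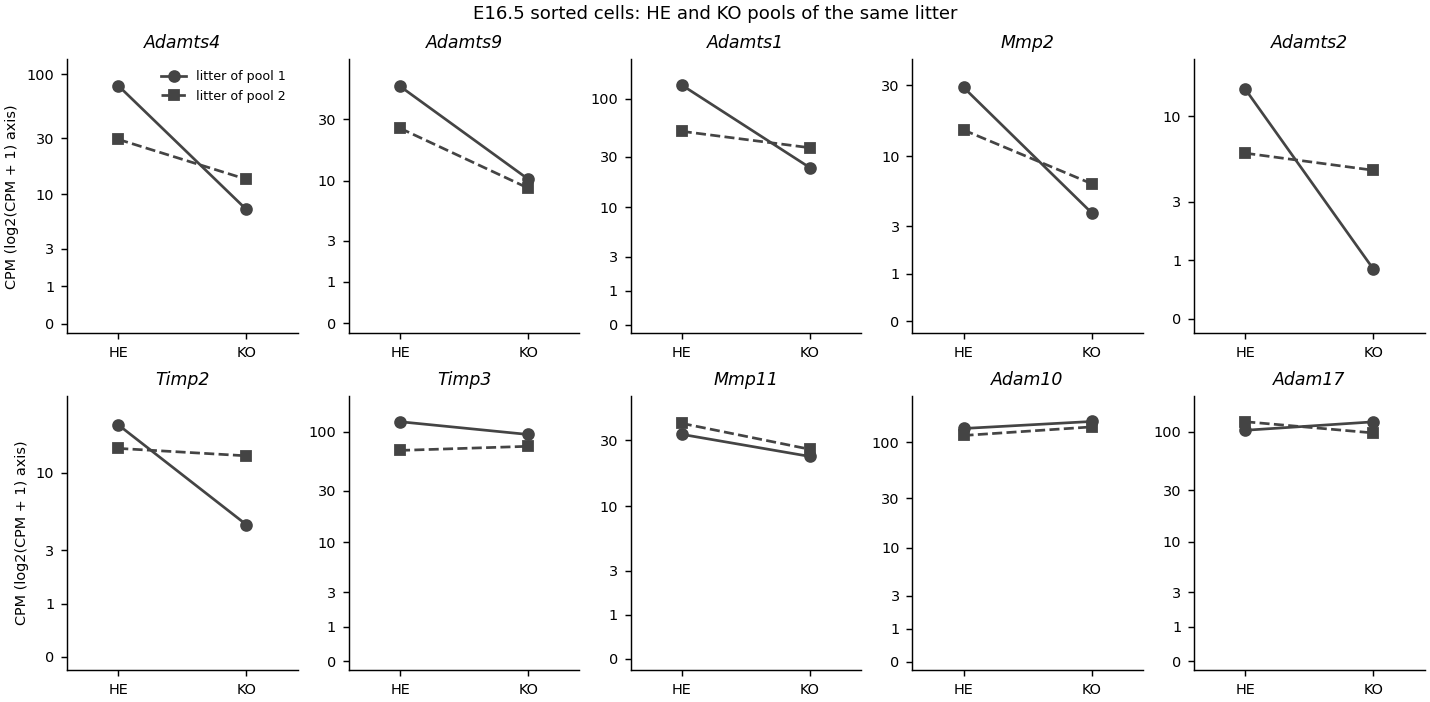
CPM of 10 genes in the E16.5 pools, on a log2(CPM + 1) axis, with a line from the HE to the KO pool of each litter (solid line and circles, pool 1; dashed line and squares, pool 2). Adamts4, Adamts9, Adamts1 and Mmp2 fall from HE to KO along both lines, more steeply for pool 1, whereas Adam10 and Adam17 stay nearly level.

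Between E16.5 and E18.5, 9 of 12 tested ADAMTSs and both tested TIMPs were called lower in HE cells, where 19.4% of all genes tested were called lower. Of these 9, Adamts2, Adamts3, Adamts4, Adamts6, Adamts8 and Adamts19 passed the filter on low values only through the E16.5 pools, where they were higher. The 4 of 12 ADAMs that rose were near the share of all genes called higher, 30.3%. Adamts4, Adamts1 and Adamts9, which cut versican, had the largest falls on the log2(CPM + 1) scale, while with a pseudocount of 0.1 Mmp2 (-4.40) passed Adamts1 (-4.30). Adamts4 went from 80.8 and 29.3 CPM to 0 and 0.25 CPM (-5.48, SE 0.50, limma adjusted p = 0.000681), where 3 reads correspond to 0.657 to 0.692 CPM in the E18.5 libraries. Adamts1 went from 132.5 and 51 CPM to 4.2 and 3.95 CPM (-4.04, SE 0.43, limma adjusted p = 0.00102). Adamts9 went from 53.3 and 25.8 CPM to 2.35 and 0.9 CPM (-3.92, SE 0.45, limma adjusted p = 0.00136). In each case the 2 stages were far apart. Of 41 genes tested, 26 were called, 7 higher and 19 lower at E18.5, whereas 49.6% of all 18408 genes tested were called, 30.3% higher and 19.4% lower. The median log2 fold change was -0.70 over the 41 genes and 0.23 over all genes.

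By family, 9 of 12 ADAMTSs, 6 of 13 MMPs, 2 of 12 ADAMs and 2 of 2 tested TIMPs were lower. Mmp2 went from 29 and 15.2 CPM to 0.5 and 1.55 CPM (-3.49, SE 0.45, limma adjusted p = 0.00192). Both procollagen N-proteinases fell, Adamts2 by 2.51 and Adamts3 by 1.78 on the log2 scale. Timp2 went from 19.6 and 14.2 CPM to 3.7 and 1.35 CPM (-2.41, SE 0.42, limma adjusted p = 0.00545), and Timp3 from 123 and 68.7 CPM to 16.4 and 23 CPM (-2.19, SE 0.30, limma adjusted p = 0.00237). Both inhibitors thus lay below every E16.5 HE value. The sheddases Adam19 (-2.79) and Adam12 (-1.93) and the stromelysin Mmp11 (-1.47) fell too. The remaining lower calls were Adamts8, Adamts19, Adamts12, Adamts6, Mmp17, Mmp16, Mmp13 and Mmp12, with log2 fold changes from -1.89 to -0.92, all from levels of at most 7.1 CPM. Of the lower calls, Adam12, Adam19, Adamts2, Adamts3, Adamts4, Adamts6, Adamts8, Adamts19, Mmp12, Mmp13 and Mmp17 passed the filter on low values only through the E16.5 pools, where they were higher. Mmp12 and Mmp13 never passed 1.6 and 2.4 CPM in sorted cells. In the E16.5 HE pools 3 reads correspond to 2.35 and 1.51 CPM, so these calls rest on few reads.

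Mmp14, the membrane-type enzyme that activates MMP2, moved the other way, from a mean of 12.8 ± 5.23 CPM (SD, n = 2) to 27 and 33.3 CPM, each above both E16.5 values (1.22, SE 0.30, limma adjusted p = 0.0181). Adam15 went from 3.95 and 4.05 CPM to 13.7 and 11.9 CPM (1.46, SE 0.29, limma adjusted p = 0.00825), and Adam9, a sheddase that many epithelia express, from 25.1 and 18.7 CPM to 33.9 and 35.7 CPM (0.66, SE 0.20, limma adjusted p = 0.0346). The Adam9 call was lost without E16.5 HE pool 2, E18.5 embryo 1 or E18.5 embryo 2 (adjusted p up to 0.222 in limma) and with TMM scaling (0.52). Higher calls at low levels were Adam4 (2.08), Adamtsl5 (1.38), Adam7 (1.24) and Mmp28 (0.82). Adam7 and Mmp28 passed the filter on low values only through the E18.5 embryos, where they were higher. Adam10 was 134 and 116 CPM at E16.5 and 172 and 176 CPM at E18.5 (0.48, SE 0.12, limma adjusted p = 0.0163), a 1.39-fold difference that stayed below the limit of 1.5. Among 9 genes that escort or regulate ADAM10 and ADAM17, 7 were tested, with 3 called higher and 1 lower. Rhbdf2, the rhomboid-like protein that carries ADAM17 to the surface, had the largest of these differences (2.72, SE 0.28). Of 20 other matrix proteolysis genes tested, 3 were higher and 9 lower, among them the protease inhibitor Serpine2 (-2.62) and the urokinase gene Plau (-2.10).

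All 14 tested mesenchymal markers and all 5 endothelial markers were lower at E18.5 as well, with mesenchymal sums of 62.7 and 45.9 CPM, whereas 6 of 7 epithelial and stem cell markers were higher. Vcan went from 44.7 and 30.8 CPM to 1.65 and 3.95 CPM (-3.40, SE 0.38, limma adjusted p = 0.00124). The part of these markers in the family's values was not tested. The E16.5 libraries were pools of 7 and 8 embryos and the E18.5 libraries single embryos. Without E18.5 embryo 1 the count of calls was 15 and without embryo 2 it was 16, and 15 of the 26 calls were kept whichever library was left out and the gene could be tested. Calls lost in at least 1 such fit were Adam9, Adamts3, Adamts6, Adamts12, Adamts19, Adamtsl5, Mmp12, Mmp13, Mmp16, Mmp17 and Mmp28.

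From E18.5 to the adult the family changed less, apart from Mmp7. Mmp7 was 0.95 and 3.3 CPM in the E18.5 embryos, 167 and 238 CPM in the adult duodenum, and 211 and 1069 CPM in the adult ileum. Every adult library was far above both embryos. The difference was 6.74 on the log2 scale (SE 0.71, limma adjusted p = 0.00115). At E16.5 Mmp7 was 0 and 1.05 CPM in HEs, where 3 reads correspond to 2.35 and 1.51 CPM, and 5.75 and 1.6 CPM in KOs. Of 33 genes tested, 8 were called, 5 higher and 3 lower in adults, whereas 19% of all 19554 genes were called, 9.36% higher and 9.65% lower. The median was 0.25 over the 33 genes and -0.04 over all genes.

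Mmp7 lies at chr9:7692090-7699585 (GRCm38) on the plus strand, at the end of a run of 10 MMP genes between 7272514 and 7699585. Its upstream neighbour Mmp20, the enamelysin that cuts tooth enamel proteins, ends 17110 bases before it. Mmp20 was 0.5 and 0 CPM at E18.5 and 2, 3.85, 2.2 and 8.95 CPM in the adult libraries (1.92, SE 0.50, limma adjusted p = 0.0385), and like Mmp7 it was highest in the ileum of mouse 2. The other 8 genes of the run stayed at or below 2.4 CPM in sorted cells, and in organoids every gene of the run but Mmp7 stayed at or below 0.2 CPM. The 250 bases before the RefSeq start of Mmp7, Mmp20 and Mmp10, the stromelysin-2 gene of the same run, are printed to show what their upstream sequences share. They are from RefSeq (GRCm38.p6), written 5′ to 3′ on the gene's strand, and the windows are chr9:7691840-7692089, chr9:7627981-7628230 and chr9:7502092-7502341. Capitals mark TGANTCA, a loose pattern for AP-1 transcription factors in which N is any base, and TATAAA, the TATA box. The AP-1 stretch reads TGAATCA in Mmp20 and TGAGTCA in Mmp7 and Mmp10.
Mmp7: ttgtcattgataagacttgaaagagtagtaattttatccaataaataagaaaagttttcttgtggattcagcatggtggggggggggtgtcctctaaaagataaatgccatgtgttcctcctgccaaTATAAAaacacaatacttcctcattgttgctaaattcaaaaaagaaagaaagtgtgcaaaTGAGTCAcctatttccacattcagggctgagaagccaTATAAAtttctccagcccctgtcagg
Mmp20: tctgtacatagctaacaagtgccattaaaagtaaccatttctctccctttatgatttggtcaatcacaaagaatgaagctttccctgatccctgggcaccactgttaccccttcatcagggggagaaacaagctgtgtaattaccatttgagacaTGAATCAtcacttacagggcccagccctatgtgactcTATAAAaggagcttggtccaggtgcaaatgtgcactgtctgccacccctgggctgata
Mmp10: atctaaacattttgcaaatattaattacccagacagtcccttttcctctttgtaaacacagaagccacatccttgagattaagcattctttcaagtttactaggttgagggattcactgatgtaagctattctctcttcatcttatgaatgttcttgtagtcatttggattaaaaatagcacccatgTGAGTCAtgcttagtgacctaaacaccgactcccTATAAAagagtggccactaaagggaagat
TGANTCA was searched on both strands and TATAAA on the gene's strand alone. TGANTCA was found in the windows of 8 of the 10 genes of the run and TATAAA in 7, which all held both. In Mmp7 the AP-1 letters start at -63 and TATAAA at -123 and -26, counted from the gene start. A second RefSeq window of Mmp7, chr9:7692091-7692340, held neither and had a TCF/LEF match at -247. Of 58 windows of 53 matched genes of the family, 20.7% held TGANTCA and 19% held TATAAA, whereas of all 32851 windows of this length 6.75% and 7.59% did. The 12 windows of the run held most of these matches, and of the 46 windows outside it 8.7% held the AP-1 letters and 8.7% the TATA box. CTTTGAA or CTTTGAT, bound by the TCF/LEF factors of the Wnt pathway, was in 6.9% of the family's windows and 7.48% of all. No motif overlapped another in the printed windows. These matches are letters in a window, and their part in the levels was not tested. Mmp10 also holds TGANTCA at -63 and was among the genes that stayed at or below 2.4 CPM.

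Mmp15, a membrane-type MMP, was 19.2 and 20.6 CPM at E18.5 and 30.7, 42, 41.4 and 41.7 CPM in the 4 adult libraries (0.93, SE 0.17, limma adjusted p = 0.0108). All adult values were above the embryonic ones. Adamts15, another versican-cutting ADAMTS (1.57), and Adam22, a neuronal receptor without protease activity (1.45), were higher at low levels, between 0.95 and 12 CPM in these 4 libraries. Adamts10, which binds fibrillin microfibrils (-1.91), Adamtsl5 (-1.45) and Adam7 (-1.29) were lower. Timp2 and Timp3 differed by -0.76 and -0.26 (limma adjusted p = 0.211 and 0.801). Adam10 was 183 to 244 CPM in the adults (0.20, SE 0.14, limma adjusted p = 0.365).

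The 7 Paneth cell markers were all higher in adults (median 5.87), with sums of 168 and 152 CPM at E18.5 and 17348, 17535, 11626 and 27958 CPM in the duodenum of mice 1 and 2 and the ileum of mice 1 and 2. The library with the highest Mmp7 also had the highest Paneth sum. The ileum of mouse 1, however, had the lowest Paneth sum but more Mmp7 than the duodenum of the same mouse. The part of Paneth cells in Mmp7 was not tested. Without E18.5 embryo 1 the count of calls fell to 2 and without embryo 2 to 3. Mmp7 and Adam22 were called in all 6 fits that left out a library. Adam7 and Adamts10 were called in the 4 that left out an adult library and did not pass the filter on low values without either embryo. With the duodenum alone as the adult group 16 genes were called.

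Between the 2 adult regions, sampled in the same 2 mice, 2 of 7 tested ADAMTSs were called lower in the ileum and 2 higher. Adamts12, which cuts cartilage oligomeric matrix protein, was 15.2 and 28.1 CPM in the duodenum and 0.25 and 3 CPM in the ileum (-3.28, SE 0.56, limma adjusted p = 0.0228). Adamts1 was 16.6 and 11.9 CPM in the duodenum and 2.2 and 2.1 CPM in the ileum (-2.26, SE 0.29, limma adjusted p = 0.0078). Both duodenal values were above both ileal ones. Of 30 genes tested, 7 were called, whereas 6.88% of all 18608 genes were called, 2.24% higher and 4.64% lower in the ileum, and the medians were 0.02 and 0.03. Adamtsl4, an ADAMTS-like protein without protease activity (-1.30), and Adam1a (-1.16) were also lower in the ileum. Adam1a shares 4779 of its 7508 exon bases with Gm42878 on the same strand, so its reads are uncertain. Higher in the ileum were Adamts9 (0.75 and 1.35 CPM against 3.65 and 5.75 CPM, 1.47, SE 0.34, limma adjusted p = 0.0663), Adamts16 (1.55) and Mmp16 (1.63), the last 2 at up to 3.45 CPM. Adamts16 and Mmp16 passed the filter on low values only through the ileum libraries, where they were higher.

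Mmp7 was higher in the ileum of each mouse, from 167 to 211 CPM in mouse 1 and from 238 to 1069 CPM in mouse 2 (1.25, SE 0.65, limma adjusted p = 0.415). Timp3 was lower in the ileum of each, from 40.4 to 14.9 CPM and from 16 to 6.65 CPM (-1.27, SE 0.48, limma adjusted p = 0.25). With the mouse as a term in the fit, limma called 10 genes, where 11.1% of all genes were called, adding Mmp7 (adjusted p = 0.0577), Timp3 (0.00562) and Adam1b. Of 9 tested gene identifiers of immune markers 2 were higher in the ileum, and both belong to the 1 marker Itgam. The leukocyte antigen gene Ptprc was lower, with 56.9 and 71.4 CPM in the duodenum and 12.2 and 27.1 CPM in the ileum. All 3 enterocyte markers were lower in the ileum. Their part in the ADAMTS values was not tested. Without the ileum of mouse 2 there were 2 calls and without the duodenum of mouse 1 there were 4. Adamts1 and Adamts12 were the calls kept in every such fit, and without the filter on low values limma called Adamts1 alone.

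**Figure D3:**
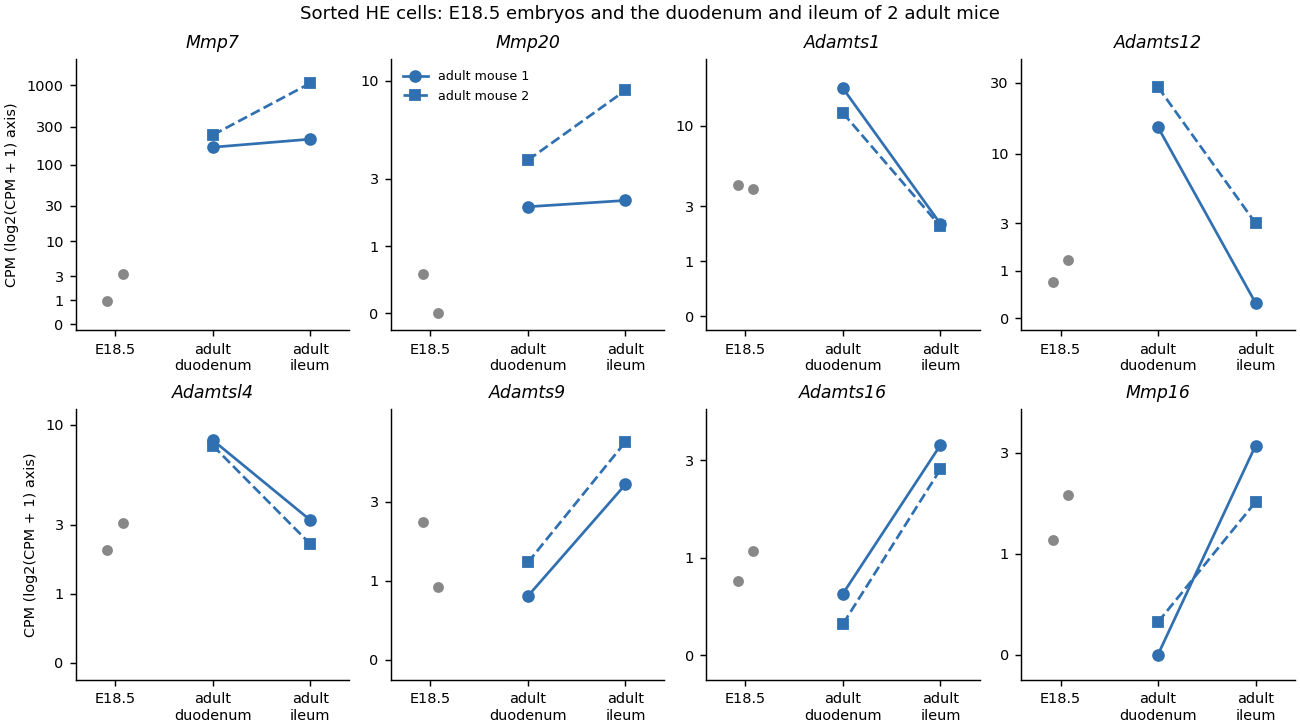
CPM of 8 genes in sorted HE cells, on a log2(CPM + 1) axis, for 2 E18.5 embryos (grey points) and for the duodenum and ileum of 2 adult mice (solid line and circles, mouse 1; dashed line and squares, mouse 2). Mmp7 and Mmp20 are higher in adults than at E18.5, Adamts1, Adamts12 and Adamtsl4 fall from duodenum to ileum, and Adamts9, Adamts16 and Mmp16 rise.

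After tamoxifen, the comparison of cKO and HE cells asks whether the short-term loss of Lgr5 in adult stem cells changes the family. With the genotypes of the labels, limma called 0 of 46 genes, and 0.0504% of all 19848 genes, 0.0302% higher and 0.0202% lower. At an unadjusted p below 0.05 there were 5 of the 46 genes and 902 of all genes. Timp3 came closest. It was 5.35 and 3.9 CPM in the libraries labelled HE and 11.1, 10 and 19.1 CPM in those labelled cKO, which did not overlap (1.31, SE 0.32, limma adjusted p = 0.864). Mmp7 was 266 and 520 CPM with the HE label and 303, 388 and 301 CPM with the cKO label (-0.18, SE 0.27, limma adjusted p = 0.899). Ddx3y was 47.3 and 73 CPM in the libraries labelled HE and 0 to 0.15 CPM in those labelled cKO, so sex and labelled genotype cannot be told apart.

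A second record of the same libraries, matched to them by their values, gives the other genotype for the library labelled HE 1 and the library labelled cKO 2. With that assignment 3 of 46 genes were called, whereas 3.92% of all genes were called, 2.54% higher and 1.38% lower. Adam19 was 1.8, 1.5 and 3.95 CPM in the 3 libraries then cKO and 0 CPM in both libraries then HE (1.71, SE 0.37, limma adjusted p = 0.0668). Timp2 was 2.7, 5.55 and 4.15 CPM against 0.35 and 1.25 CPM (1.52, SE 0.37, limma adjusted p = 0.0783). Mmp7 was 266, 303 and 301 CPM against 520 and 388 CPM (-0.63, SE 0.14, limma adjusted p = 0.0669). For all 3 genes the groups did not overlap under this assignment. Adam19 thus passed the filter on low values only through the libraries then cKO. These 3 libraries were also deeper (9055338, 8122497 and 9984665 reads) than the other 2 (3084687 and 5717577 reads). They had more genes above 0 (32121, 35792 and 42154 against 22675 and 24944), and their Paneth marker sums were lower (3848, 2404 and 2585 CPM against 6641 and 5071 CPM). The part of depth, genes above 0 or Paneth markers in these differences was not tested.

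In organoids, members rose with the dose of ligand in 5 of 6 comparisons, as did many of all genes tested. From 5 to 100 ng/ml Rspo1, 14 of 28 tested genes rose and 2 fell in WT cultures, whereas 53.4% of all 19130 genes tested were called, 40.9% higher and 12.5% lower. With Rspo2, 12 rose and 1 fell (33.4% of all genes called, 24.3% higher and 9.12% lower), and with Rspo3, 10 rose and 1 fell (51.4% called, 37.8% higher and 13.7% lower). The medians over the 28 genes were 0.47, 0.40 and 0.31, and those over all genes 0.28, 0.17 and 0.24. In KO cultures 12 rose with Rspo1 (29.8% of all genes called, 21.9% higher and 7.86% lower), none passed the test with Rspo2 (0.115%), and 10 rose and 1 fell with Rspo3 (44.5%, 32.7% higher and 11.8% lower). These calls used limma on all 30 libraries at FDR 0.05. With TMM scaling the medians over all genes became 0.025, 0.02 and 0.033 in WTs, and the calls were 11 higher and 4 lower with Rspo1, 10 and 4 with Rspo2, and 8 and 3 with Rspo3. In KOs they were 9 and 0 with Rspo1 and 8 and 2 with Rspo3.

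**Figure D4:**
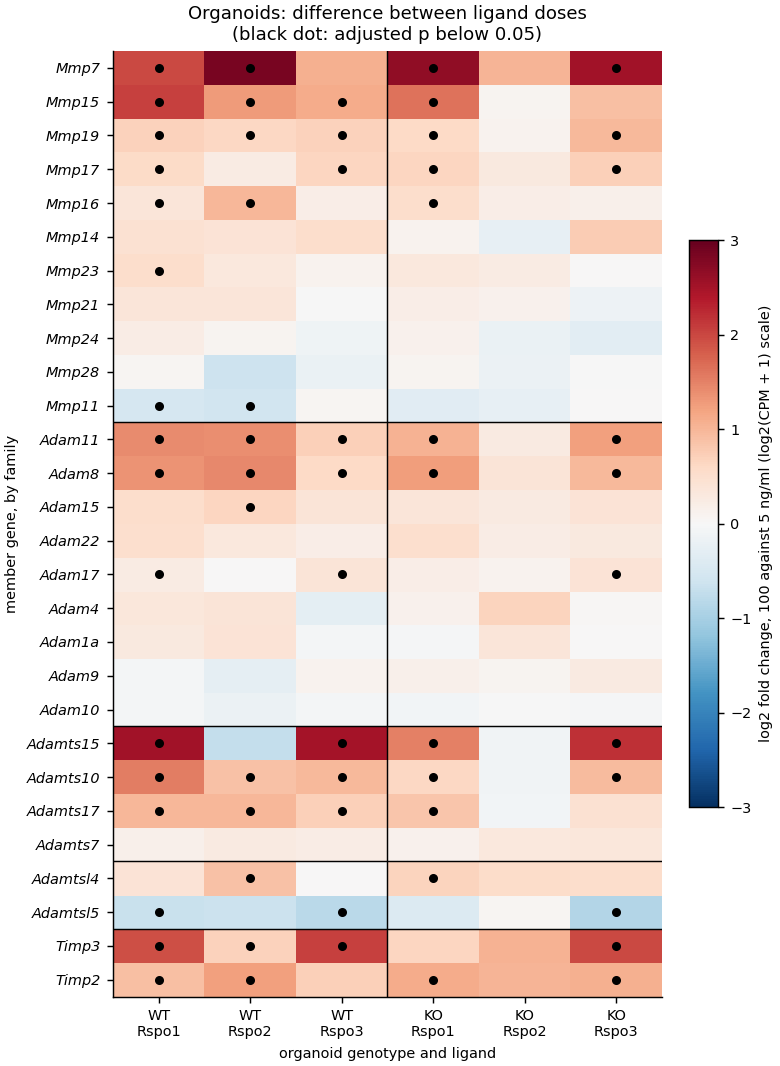
Log2 fold change between 100 and 5 ng/ml of each ligand (colour, log2(CPM + 1) scale, red for higher at 100 ng/ml) for the 28 tested genes, ordered by family, in WT and KO organoids. Black dots mark limma adjusted p below 0.05. Mmp7, Mmp15, Adamts10, Adamts15 and Timp3 hold the darkest red cells, the KO Rspo2 column has no dot, and Adam10 has none in any column.

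Mmp7 was among the genes with the largest rise. In WT10, WT5 and WT30 it was 0.1, 0.05 and 0 CPM with 5 ng/ml Rspo1 and 5, 3.1 and 1.9 CPM with 100 ng/ml (1.98, SE 0.45, limma adjusted p = 0.000889). With Rspo2 it went from 0.35, 0.3 and 0.15 CPM to 12, 6.7 and 6.35 CPM (2.84, SE 0.45, limma adjusted p = 9.74e-05). With Rspo3 it went from 0 CPM in all 3 cultures to 1.4, 0.85 and 1.1 CPM (1.07, SE 0.45, limma adjusted p = 0.0506). The doses did not overlap for any ligand. In KO7 and KO2 it was 0.15 and 0.4 CPM with 5 ng/ml Rspo1 and 12.7 and 3.7 CPM with 100 ng/ml (2.66, SE 0.55, limma adjusted p = 0.00121), and 0 and 0.1 CPM with 5 ng/ml Rspo3 and 9.4 and 2.5 CPM with 100 ng/ml (2.52, SE 0.55, limma adjusted p = 0.000757). With Rspo2 it was already 8.15 and 2.85 CPM at 5 ng/ml, against 23.6 and 4.8 CPM at 100 ng/ml (1.01, SE 0.55, limma adjusted p = 0.786). KO7 was above KO2 in 4 of the 6 pairs of values, all with Rspo2 or at 100 ng/ml. A fit with the culture as a term called 1 gene with Rspo2 in KOs, Timp3 (1.05, limma adjusted p = 0.0124), where 1.17% of all genes were called.

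Of 5 tested membrane-type MMPs, Mmp15, Mmp16 and Mmp17 were called in some dose comparisons and Mmp14 and Mmp24 in none of the 6 (log2 fold changes from -0.25 to 0.77 and from -0.33 to 0.23). Mmp15 in WT10, WT5 and WT30 was 16, 11.8 and 11.6 CPM with 5 ng/ml Rspo1 and 56, 53.2 and 61.6 CPM with 100 ng/ml (2.05, SE 0.31, limma adjusted p = 1.19e-05). It also rose with Rspo2 (1.28) and Rspo3 (1.12) in WTs and with Rspo1 in KOs (1.63). With Rspo2 in KO7 and KO2 it was 85.8 and 54.4 CPM at 5 ng/ml and 90.3 and 57.3 CPM at 100 ng/ml (0.07, SE 0.38), so the doses overlapped. Mmp16 rose with Rspo1 (0.37) and Rspo2 (1.00) in WTs and stayed at or below 1.65 CPM. It passed the filter on low values only through WT10 and WT30 with 100 ng/ml Rspo2, the group in which it was highest. The GPI-anchored Mmp17 rose with Rspo1 and Rspo3 in both genotypes (0.56 to 0.72), and Mmp19 rose in all 5 comparisons that had calls (0.59 to 0.97). Mmp11 went down in WTs, from 90.2, 82.3 and 96.1 CPM to 48.7, 64.2 and 79.5 CPM with Rspo1 (-0.50, SE 0.16, limma adjusted p = 0.0141). It also fell with Rspo2 (-0.58), while its difference with Rspo3 was 0.06 (SE 0.16).

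Among ADAMs, Adam11, which lacks protease activity, and Adam8, known from leukocytes, rose in the same 5 comparisons (0.72 to 1.43 and 0.59 to 1.43). Adam17 rose with Rspo3 in WTs, from 43.4, 47.7 and 45.5 CPM to 58.9, 61.7 and 58.8 CPM (0.39, SE 0.08, limma adjusted p = 0.000163), and in KOs (0.42, SE 0.09). With Rspo1 in WTs its rise of 0.24 (limma adjusted p = 0.0105) became -0.08 with TMM scaling. With TMM scaling neither Rspo3 rise was called, the KO rise was lost without KO2, and without any 1 WT culture the Rspo1 rise was lost. Adam10, the most abundant ADAM, ranged from 129 to 181 CPM over the 30 libraries, with a median of 154 CPM, and its limma adjusted p over the 6 dose comparisons ranged from 0.179 to 0.997. Of 8 tested genes that escort or regulate ADAM10 and ADAM17, 2 were higher and 2 lower with Rspo1 in WTs, led by the tetraspanin Tspan33 (1.88, SE 0.19).

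Adamts15 had the largest log2(CPM + 1) difference with Rspo1 in WTs, whereas with a pseudocount of 0.1 Mmp7 (4.47), Adamts10 (2.90) and Adam11 (2.82) passed it (2.65). In WT10, WT5 and WT30 it was 6.9, 5.35 and 11.6 CPM at 5 ng/ml and 49.9, 25.8 and 85.3 CPM at 100 ng/ml (2.51, SE 0.39, limma adjusted p = 1.65e-05). With Rspo3 it went from 4.5, 3.85 and 9.15 CPM to 32.1, 27.5 and 50.9 CPM (2.497, SE 0.39, limma adjusted p = 1.27e-05). With Rspo2 it was 26.4, 25.2 and 35.1 CPM at 5 ng/ml and 16.4, 15.5 and 19.6 CPM at 100 ng/ml (-0.71, SE 0.39, limma adjusted p = 0.16), lower at the high dose in each culture. The dose effect of Rspo2 minus that of Rspo1 was -3.23 (SE 0.55, limma adjusted p = 0.00279), and without WT10 it missed the threshold (limma adjusted p = 0.175). In KO7 and KO2 it was 11.4 and 18.45 CPM with 5 ng/ml Rspo1 against 63.9 and 29.4 CPM (1.52, SE 0.47), and 70.3 and 31.4 CPM with 5 ng/ml Rspo2 against 43.6 and 43.9 CPM (-0.10, SE 0.47). Adamts10 and Adamts17 rose with all 3 ligands in WTs (0.88 to 1.55 and 0.70 to 1.00). Adamtsl5 fell with Rspo1 (-0.68) and Rspo3 (-0.80) in WTs and with Rspo3 in KOs (-0.88), where it went from 158 and 129 CPM in KO7 and KO2 to 101 and 59.2 CPM.

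The inhibitors that organoids express rose as well. Timp3 in WT10, WT5 and WT30 was 4, 3.8 and 5.7 CPM with 5 ng/ml Rspo1 and 16.9, 18.9 and 24 CPM with 100 ng/ml (1.93, SE 0.27, limma adjusted p = 5e-06). With Rspo3 it went from 2.25, 2.6 and 3.25 CPM to 8.8, 15 and 21.5 CPM (2.05, SE 0.27, limma adjusted p = 1.39e-06). With Rspo2 it was already 9.3, 13.5 and 17.9 CPM at 5 ng/ml, against 16, 22 and 30 CPM (0.70, SE 0.27, limma adjusted p = 0.0473), a call that was lost without any 1 WT culture. In KOs Timp3 rose with Rspo3 (1.97, SE 0.33, limma adjusted p = 4.53e-05). Timp2 rose with Rspo1 and Rspo2 in WTs (0.90 and 1.24) and with Rspo1 and Rspo3 in KOs (1.103 and 1.063), to at most 11.1 CPM in these 4 comparisons. Its Rspo1 call in WTs was lost without any 1 WT culture, and its KO calls each rested on KO7.

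**Figure D5:**
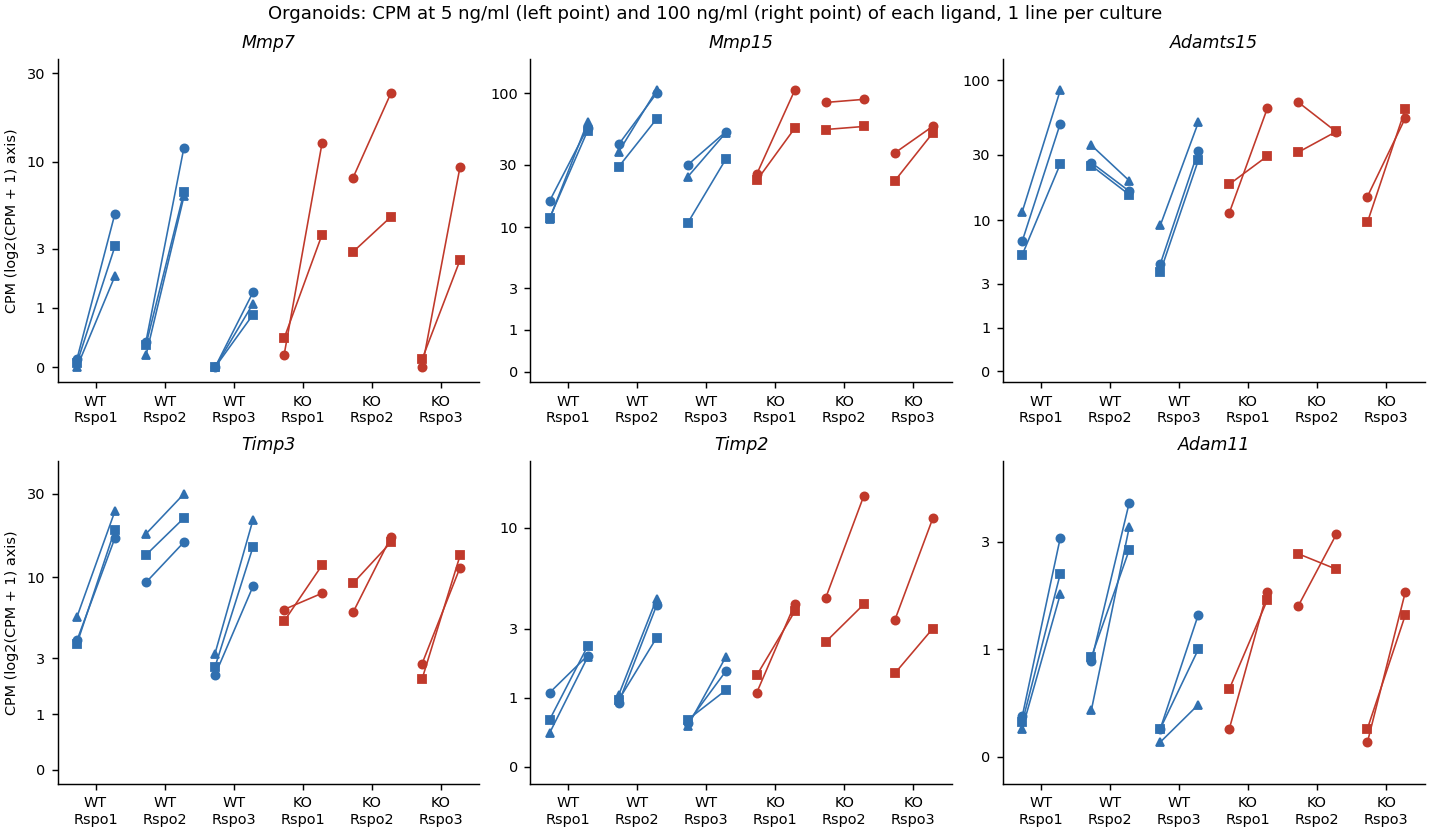
CPM of 6 genes in organoids, on a log2(CPM + 1) axis, at 5 ng/ml (left point) and 100 ng/ml (right point) of each ligand, with 1 line per culture (blue, WT; red, KO). Most lines rise, Adamts15 falls along all 3 WT Rspo2 lines, and the KO Rspo2 lines of Mmp15 are nearly flat.

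Markers of other cells moved with the dose. Of 7 Paneth markers, 6 were higher in each of the 5 comparisons with calls among the family, with WT sums of 216 to 560 CPM at 5 ng/ml and 862 to 1631 CPM at 100 ng/ml Rspo1, and 5 of 7 epithelial and stem cell markers were higher. With Rspo2 in KOs none of either list was called, and the Paneth sums at 5 ng/ml (1170 CPM in KO7 and 1097 CPM in KO2) were above those at 100 ng/ml (772 and 983 CPM). Mesenchymal sums stayed between 10.3 and 21 CPM in all 30 libraries. The part of Paneth cells in the rise of the family was not tested. Counts depended on single cultures: without WT30 there were 10 calls with Rspo1 and 5 with Rspo2, without WT10 there were 8 with Rspo2, without KO7 there was 1 with Rspo1 (Mmp7), and without KO2 there were 7 with Rspo3. Of 20 other matrix proteolysis genes, 3 were higher and 7 lower with Rspo1 in WTs, among them the urokinase receptor Plaur (2.06, SE 0.60) and the meprin Mep1b (-1.38, SE 0.34).

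The ligands were compared at matched doses in WTs, where both comparisons share the Rspo1 libraries. At 100 ng/ml only Mmp16 was called between Rspo2 and Rspo1, with 1.15, 0.7 and 1.65 CPM against 0.35, 0.4 and 0.25 CPM in WT10, WT5 and WT30 (0.68, SE 0.12, limma adjusted p = 0.0159), whereas 0.204% of all genes were called, 0.188% higher and 0.0157% lower. Mmp16 was not called with a pseudocount of 0.1, and without WT10 or WT30 it did not pass the filter on low values. It thus entered the test only through the Rspo2 group in which it was higher. With the culture as a term Adamts15 was called too, lower with Rspo2 (-1.44, limma adjusted p = 0.00924), where 1.31% of all genes were called. Between Rspo3 and Rspo1 at that dose 0 genes of the family and 0.00523% of all genes were called by limma (8 and 4271 at an unadjusted p below 0.05). With the culture as a term, limma called 8, with Mmp11 higher and Adam8, Adam11, Adam15, Adamts10, Adamts17, Adamtsl4 and Mmp7 lower with Rspo3, where 15.2% of all genes were called.

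At 5 ng/ml Rspo2 gave higher levels than Rspo1 for Adamts15 (1.79, SE 0.39, limma adjusted p = 0.00273), Mmp15 (1.39, SE 0.31, limma adjusted p = 0.00303), Timp3 (1.38, SE 0.27, limma adjusted p = 0.0012) and Adamts10 (0.66, SE 0.17, limma adjusted p = 0.00983). Each WT culture had higher levels of these 4 genes with Rspo2. The 4 calls among 28 tested genes were not above the share of all genes called (22.8%, 16.4% higher and 6.35% lower), and without WT10 the count was 2. Adding the culture as a term made it 9, adding Adam11, Mmp19, Mmp24 and Mmp28 higher and Adam1a lower (35.9% of all genes). Between Rspo3 and Rspo1 at 5 ng/ml none of the 28 genes but 16.4% of all genes were called by limma (2 of 28 and 5817 of all at an unadjusted p below 0.05). Adding the culture as a term gave 3 calls, Mmp15 and Adamtsl5 higher and Timp3 lower with Rspo3 (29.1% of all genes). In WTs, the dose effect of Rspo2 minus that of Rspo1 was also called for Mmp16 (0.64, limma adjusted p = 0.0396), and with the culture as a term for Timp3 (-1.23) and Mmp15 (-0.77) besides. The dose effect of Rspo3 minus that of Rspo1 gave 0 calls with limma (6 of 28 and 2237 of all at an unadjusted p below 0.05), and 2 with the culture as a term, Mmp11 (0.56) and Mmp15 (-0.93).

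Genotypes were compared at 5 ng/ml Rspo2, where 3 of 28 tested genes were called and 25 were not. The median log2 fold change was 0.186 over the 28 genes and 0.093 over all genes. Mmp7 was 8.15 and 2.85 CPM in KO7 and KO2 and 0.35, 0.3 and 0.15 CPM in WT10, WT5 and WT30 (2.23, SE 0.50, limma adjusted p = 0.0152). Adam8 was 3.4 and 3.2 CPM in KOs and 0.7, 1.9 and 1.05 CPM in WTs (0.99, SE 0.24, limma adjusted p = 0.0243), and Adam11 was 1.65 and 2.7 CPM against 0.85, 0.9 and 0.35 CPM (0.90, SE 0.22, limma adjusted p = 0.0216). The genotypes did not overlap for any of the 3 genes, all higher in KOs, whereas 4.54% of all genes were called, 3.18% higher and 1.36% lower. Timp3 was 6.1 and 9.2 CPM in KOs and 9.3, 13.5 and 17.9 CPM in WTs (-0.73, SE 0.30, limma adjusted p = 0.152). Paneth sums were 1170 and 1097 CPM in the KO cultures and 522, 491 and 456 CPM in the WT cultures under this condition, and their part in Mmp7 was not tested. A fit of these 5 libraries alone called none of the 3, and leaving out WT10, WT5, WT30 or KO7 gave 1, 1, 0 and 5 calls.

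The KO dose effect of Rspo2 minus the WT dose effect gave 0 calls among the 28 genes with limma (7 of 28 and 2438 of all at an unadjusted p below 0.05), where 0.439% of all genes were called. With the culture as a term 6 genes were called, all with a lower dose effect in KOs, whereas 3.97% of all genes were called. They were Mmp7 (-1.83, SE 0.50, limma adjusted p = 0.045), Mmp15 (-1.21, SE 0.28, 0.0211), Adam11 (-1.13), Adamts17 (-1.08), Adamts10 (-0.99) and Mmp16 (-0.80). Without WT5 or KO7 the fit with no culture term gave 2 calls each. The KO minus WT difference gave 0 calls for Rspo1 and for Rspo3 with limma, with and without the culture as a term (2 and 0 of 28 genes, and 516 and 430 of all, at an unadjusted p below 0.05 without it). Over culture means, KO and WT organoids differed in none of the 28 genes by limma (5 of 28 at an unadjusted p below 0.05), and in 0.152% of all genes, and without KO2 there were 2 calls. Across the 12 groups none of the 28 genes passed an FDR of 0.001 with a range above 16-fold (0.659% of all genes), while 18 passed an FDR of 0.05 with no limit on the range (68.8% of all genes).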

How the data were processed

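RNA was sequenced from 15 sorted-cell libraries (Ovation SoLo kit) and 30 organoid libraries (rRNA depletion), 2 x 100 bases, paired end. The authors deposited CPM (reads scaled to a common library total) per Ensembl gene for mouse GRCm38.p4, rounded up to steps of 0.05, and their processing notes name Trimmomatic 0.36, STAR 2.5.3a and HTSeq 0.9.1. Total reads per library were recovered from the value of 1 read. Groups were taken from the labels. log2(CPM + 1) was tested with limma 3.58.1 (R 4.3.3; lmFit, eBayes with trend) over all genes that passed a filter on low values, with Benjamini-Hochberg adjustment: FDR 0.1 and 1.5-fold for sorted cells, FDR 0.05 in 1 fit of 12 groups for organoids, FDR 0.001 and 16-fold for variation among groups. The steps were tested on simulated data. For the E16.5 pools, edgeR 4.0.16 and DESeq2 1.42.0 were run on recovered whole reads. E16.5 pools share litters, adult regions share mice and organoids share cultures, so fits with these as a term were added. The correlation of deviations was -0.0324 for the E16.5 litters and 0.2572 for the adult mice, and the lowest within a culture was 0.1933 for WT10, 0.1552 for WT5, 0.4308 for WT30 and 0.2343 for the KO cultures. Alternatives were the pseudocount, the filter, TMM scaling, the thresholds and leaving out each library. The differences between dose effects were chosen after seeing the data. Members and lists were chosen with earlier results of these data known. Named genes were the TIMPs, every called member, the 10 highest per kb and values of these elsewhere. Nothing says that the organoid libraries of 1 culture were repeated, and the p-values measure the spread between the libraries of each fit. The main adult against E18.5 fit took the duodenum and ileum of each mouse as separate libraries. The main organoid fit likewise took the conditions of each culture as separate libraries. The p-values of these fits thus do not measure the spread between mice or between cultures alone.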

Additional observations from a re-analysis of the deposited data

Results flagged for a closer look

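In the 4 adult HE libraries of duodenum and ileum, 6 of 33 tested genes had 1 library far from the others by Dixon's test, where chance gives about 1 in 20. The ileum of mouse 2 was highest for Mmp7 (1069.2 CPM), Adam11 (1.4 CPM), Adam7 (0.5 CPM) and Adamts10 (0.25 CPM). The ileum of mouse 1 was lowest for Adam8 (0.5 CPM), and the duodenum of mouse 1 was lowest for Mmp15 (30.7 CPM). The values of Adam7 and Adamts10 rest on few reads.

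The dose effect of Rspo2 was lower in KO than in WT organoids in the limma fit with the culture as a term for Mmp7 (-1.828, adjusted p = 0.045), Mmp15 (-1.21, 0.0211), Adam11 (-1.133, 0.017), Adamts17 (-1.075, 0.025), Adamts10 (-0.989, 0.0374) and Mmp16 (-0.798, 0.0297). In WT organoids the dose effect of Rspo2 differed from that of Rspo1 for Adamts15 (-3.225, limma adjusted p = 0.00279, and 2.65e-05 with the culture as a term) and Mmp16 (0.635, 0.0396 and 0.0202). With the culture as a term the dose effect of Rspo2 also differed from that of Rspo1 for Timp3 (-1.229, limma adjusted p = 0.00167) and Mmp15 (-0.767, 0.0437). The dose effect of Rspo3 differed from that of Rspo1 in that fit for Mmp11 (0.564, limma adjusted p = 0.0377) and Mmp15 (-0.929, 0.0411).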

How the results depend on the processing

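Counts are of family members called, and the cause of each change was not tested unless stated. At E16.5, where 2 were called, a pseudocount of 0.1, no filter on low values and FDR 0.05 gave 0 each. The litter as a replicate block gave 5, edgeR and DESeq2 gave 4 each, and the fit of all 15 sorted libraries gave 3. With a library left out, Adamts4 and Adamts9 stayed lower in KOs. E18.5 against E16.5 (26) ranged from 15 to 18 with a library left out, and TMM scaling moved the median of all genes there from 0.227 to 0.097. Adult against E18.5 (8) gave 16 with the duodenum alone and 2 to 10 with a library left out. Ileum against duodenum (7) gave 1 without the filter, 4 at FDR 0.05, 10 with the mouse as a block and 2 to 5 with a library left out. Tamoxifen cKO against HE (0) gave 3 with the genotypes of the second record. E18.5 and E16.5, adults and E18.5, and cKO and HE share only replicate numbers, with correlations of -0.0186 for the first and 0.1609 and 0.4189 for the last. A block on these numbers gave 26, 8 and 0 calls.

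With a culture left out, dose calls ranged from 10 to 11 for WT Rspo1, 5 to 12 for WT Rspo2, 1 to 10 for KO Rspo1, 0 to 1 for KO Rspo2 and 7 to 9 for KO Rspo3. The culture as a block gave 1 for KO Rspo2, and TMM scaling reversed Adam17 with Rspo1 in WTs (-0.081). Rspo2 against Rspo1 at 100 ng/ml (1) gave 0 with a pseudocount of 0.1, 2 with the block and 0 to 1 with a culture left out. Rspo3 against Rspo1 at 100 ng/ml (0) gave 8 with the block. At 5 ng/ml, Rspo2 against Rspo1 (4) gave 9 with the block and 2 to 4 with a culture left out, and Rspo3 against Rspo1 (0) gave 3 and 0 to 1. KO against WT at 5 ng/ml Rspo2 (3) gave 1 without the filter, 0 with its 5 libraries alone and 0 to 5 with a culture left out. No paired analysis was possible because each culture has 1 genotype, for this comparison and for culture means, which gave 0 to 2. The Rspo2 dose effect in KO minus WT (0) gave 6 with the block and 0 to 2 with a culture left out. In WTs, that of Rspo2 minus Rspo1 (2) gave 1 with a pseudocount of 0.1, 4 with the block and 0 to 2, and that of Rspo3 minus Rspo1 (0) gave 2 with the block. Variation among the 12 groups (0) gave 18 at FDR 0.05 with no range limit, 1 with a pseudocount of 0.1 and 0 to 1 with a culture left out. A lone library left in a group is assumed to vary like the others. Of the values of single genes under these settings, 763 kept direction and side of the threshold, 1 reversed and the others kept direction only. edgeR and DESeq2 were not run outside the E16.5 pools. Genes below about 3 reads (1.51 to 2.35 CPM in the E16.5 HE pools) cannot be told from 0.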
